A study of Mus musculus with 20 samples.

Results

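The immediate early genes described here are 10 genes of mouse skeletal muscle: the zinc finger factors Egr1, Egr2, Egr3, Klf2, Klf4 and Klf6, and the regulators Ccn1, Ier2, Btg2 and Dusp1. They were taken by name, with every probe set that the platform annotation assigns to 1 of these symbols alone, which gave 21 of 34945 single-gene probe sets and 10 of the 11201 genes tested. RNA came from a calf muscle, the gastrocnemius. The mice had received JA16, an antibody against the secreted growth inhibitor myostatin, or saline, and each group holds 10 samples. JA16 mice received 0.12 mg per g body weight into the peritoneum on day 1 and 0.09 mg per g on day 3, saline mice received saline on the same days, and all were killed on day 5. The control was saline and not another antibody, and the labels give neither strain, sex nor age. The study asks how neutralising myostatin changes muscle transcripts. Each sample has 1 value per probe set, a MAS5 intensity on a linear scale from an Affymetrix mouse array, with all arrays scaled to one trimmed mean.

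Immediate early genes are transcribed within minutes of a stimulus, without the need for new protein. Growth factors, stretch and contraction act on them through MAP kinases, which phosphorylate partners of the serum response factor SRF at a promoter element called the CArG box, and through the factor CREB at a second element, the CRE. Their messengers are short-lived, and several of their products, such as the phosphatase Dusp1, switch the same signals off again. In muscle they are known for responding to exercise, injury and blood flow, and Egr3 is needed for the stretch receptors called muscle spindles.

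In JA16 samples 7 of the 10 genes were lower and 3 were higher than in saline samples, and no difference passed the test across all genes. Egr2, Klf6 and Ccn1 lay lowest, at log2 differences of -0.49, -0.37 and -0.47. By its brightest probe set, each was lower in JA16 in 9 of 10 same-numbered pairs. Of all 11201 genes tested, 3.48% were lower in at least 9 pairs. Klf2, Ier2 and Dusp1 were higher by 0.10, 0.05 and 0.02 on the log2 scale. The median of the 10 genes was -0.19, against -0.02 over all genes, 54.2% of which were lower in JA16. This median moved with the samples and the scaling: it was -0.03 in replicates 1 to 6, -0.24 in replicates 7 to 10, -0.12 with array medians centred, where all genes had a median of 0.05, and -0.31 with a block for the pairs and a beta-actin control ratio as a covariate. Over single probe sets, 18 of 21 were lower in JA16 and 3 were higher, with a median of -0.37. Klf6 with 5 probe sets and Ccn1 with 4 weigh most in these values. The share of all probe sets that were lower, and their median, are not given here.

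The sequences upstream of the genes were searched for fixed motifs of signal-responsive elements near their starts. RefSeq's promoter table for GRCm38.p6 had an entry for 7 of the 10 genes, with 11 windows of 250 bases before a transcription start, and none for Egr1, Egr3 and Ier2. The windows of Egr2, Klf6 and Ccn1, the genes with the lowest differences, are printed with that of Dusp1, whose difference was near 0, 5′ to 3′ on the gene's strand with motif matches in capitals. For Egr2 2 of its 5 starts are shown, since a CArG box lay in 4 of the 5 windows.
Egr2, chr10:67537316-67537565, plus strand: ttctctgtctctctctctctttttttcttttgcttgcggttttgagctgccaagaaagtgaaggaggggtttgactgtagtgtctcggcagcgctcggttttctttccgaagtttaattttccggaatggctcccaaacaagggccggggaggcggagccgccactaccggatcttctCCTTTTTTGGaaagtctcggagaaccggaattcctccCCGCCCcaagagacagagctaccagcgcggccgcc
Egr2, chr10:67537619-67537868, plus strand: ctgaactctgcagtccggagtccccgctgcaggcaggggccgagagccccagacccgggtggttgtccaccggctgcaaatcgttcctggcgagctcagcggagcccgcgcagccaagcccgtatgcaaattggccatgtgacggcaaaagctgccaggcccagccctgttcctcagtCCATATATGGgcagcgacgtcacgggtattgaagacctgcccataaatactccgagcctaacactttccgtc
Klf6, chr13:5861239-5861488, plus strand: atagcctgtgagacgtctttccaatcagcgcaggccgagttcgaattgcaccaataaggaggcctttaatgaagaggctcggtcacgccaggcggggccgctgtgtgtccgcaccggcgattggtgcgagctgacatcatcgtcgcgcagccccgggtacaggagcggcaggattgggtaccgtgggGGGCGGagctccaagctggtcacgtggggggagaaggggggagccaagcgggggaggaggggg
Ccn1, chr3:145649986-145650235, minus strand: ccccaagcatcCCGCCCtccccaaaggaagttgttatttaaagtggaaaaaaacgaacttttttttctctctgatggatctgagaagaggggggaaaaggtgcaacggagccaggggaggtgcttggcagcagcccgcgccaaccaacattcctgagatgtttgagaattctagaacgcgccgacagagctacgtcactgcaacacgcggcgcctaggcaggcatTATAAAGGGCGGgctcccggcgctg
Dusp1, chr17:26508473-26508722, minus strand: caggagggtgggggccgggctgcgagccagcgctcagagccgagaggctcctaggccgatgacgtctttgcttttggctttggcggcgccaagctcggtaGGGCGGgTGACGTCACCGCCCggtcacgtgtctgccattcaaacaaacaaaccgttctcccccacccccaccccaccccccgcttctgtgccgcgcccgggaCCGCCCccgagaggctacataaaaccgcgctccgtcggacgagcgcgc
The capitals mark the CArG box and the GC box in the first Egr2 window, the CArG box in the second, the GC box in Klf6, GC boxes and TATAAA in Ccn1, and the CRE between GC boxes in Dusp1.

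Of the 7 genes with a window, only Egr2 held a CArG box, a motif found in 1.47% of all 32851 windows of this length. The full CRE, TGACGTCA, lay in Btg2 and Dusp1 and in 1.55% of all windows. The binding motif of the Egr factors themselves, GCGNGGGCG, was found in Klf2, Klf4 and Btg2 and in 4.70% of all windows. TATAAA lay in Ccn1 alone among the 7, against 12.4% of all windows. The GC box, GGGCGG, was in all 7 and in 32.7% of all windows, and the AP-1 motif TGANTCA was in none of the 7, against 6.75% of all windows. A gene was counted if any of its windows held the motif, while the shares are of single windows, so the 2 are not on one footing. Egr2 had 5 of the 11 windows. Both strands were searched, the GC box and the Egr motif can overlap, and a match describes letters and not a site in use. Near matches were not counted, so a window without a match may still hold a variant of the element.

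The arrays fell into a pair of sets. The log2 ratio of the 3′ to the 5′ control probe sets of beta-actin, a measure of how far labelled RNA reaches towards the 5′ end, lay between 1.33 and 1.84 in replicates 1 to 6, but between 0.476 and 0.643 in replicates 7 to 10. The same ratio for Gapdh overlapped between the sets. It ran from 0.208 to 0.414 in replicates 1 to 6 and from 0.181 to 0.321 in replicates 7 to 10. Both sets held both groups, so the differences of the 10 genes are also given within them. In replicates 1 to 6 the beta-actin ratio was 1.33 to 1.83 in JA16 samples and 1.69 to 1.84 in saline samples. Over both sets it was lower in JA16 in 8 of 10 pairs. Same-numbered samples shared deviations from their group means, at correlations of 0.377 to 0.786 in all 10 pairs. They were treated as pairs in a second fit that takes the replicate number as a block. Array set means were left in, and both samples of a pair lie in the same set, so these correlations also hold the set difference. All 15 skeletal muscle markers were measured, the dimmest being Des at a mean intensity of 13471, and their sum ran from 275176 to 393281 in JA16 and from 260404 to 334393 in saline samples. The labels do not say whether each sample came from its own mouse, so the p-values cover no more than the spread among these 20 samples, part of which may be technical. The muscle marker sum was lower in JA16 in 3 of 10 pairs. Of the other marker lists, summed intensity was lower in JA16 in 6 of 10 pairs for macrophages and leukocytes, 7 for fibroblasts and tendon, 6 for adipocytes and 6 for blood cells. These sums rest on 15 of 15, 12 of 12, 5 of 7 and 6 of 10 listed markers. Their dimmest markers averaged 20.1 (Itgam), 163 (Scx), 46.3 (Lep) and 4.98 (Hba-a1).

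Expression was compared with limma on log2 intensities, with Benjamini-Hochberg adjustment over all genes and a threshold of 0.05. None of the 10 genes was called without the block, where 0.0357% of all genes (4 genes) were, or with it, where 0.277% (31 genes) were. At an unadjusted p under 0.05, 2 of the 10 (Egr2 and Klf6) passed without the block, against 2.65% of all genes in either direction and 1.51% lower. With the block 3 passed (Egr2, Klf6 and Ccn1), all lower in JA16, against 16.3% of all genes in either direction and 8.76% lower. Over single probe sets, 7 of 21 passed unadjusted without the block and 10 with it, against 2.97% and 10.3% of all 45037 probe sets. Those 45037 include dim probe sets, while 19 of the 21 passed the filter on dim probe sets, so the backgrounds are unlike. None of the 21 was called, against 0.00444% of all probe sets without the block and 0.0666% with it. Probe sets of 1 gene measure the same RNA and are not independent.

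**Figure D1:**
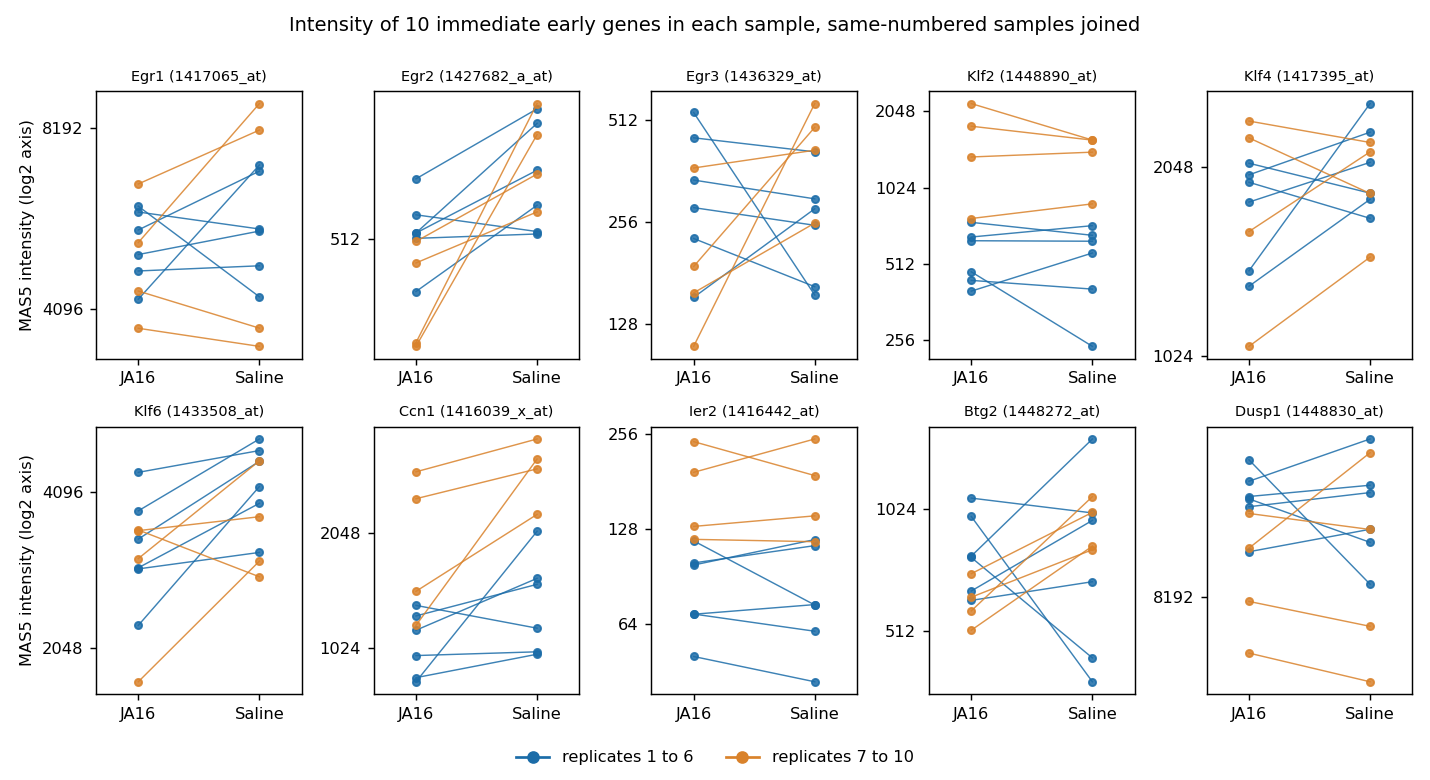
MAS5 intensity (log2 axis) of the brightest probe set of each of the 10 genes in every sample, JA16 on the left and saline on the right of each panel, with lines joining same-numbered samples and colours for replicates 1 to 6 and 7 to 10. Lines climb to the right in 9 of 10 pairs for Egr2, Klf6 and Ccn1, while Klf2, Ccn1 and Ier2 are higher in replicates 7 to 10 in both groups.

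Among the Egr factors, which bind GC-rich elements and drive later waves of transcription, Egr2 differed most. Egr2 is best known for myelination in Schwann cells and also has roles in lymphocytes. Its brighter probe set (1427682_a_at) ran from 340 over a median of 511 to 646 in JA16 samples, and from 523 over a median of 662 to 861 in saline samples. The groups overlapped in part: 6 JA16 samples lay below every saline sample, and 6 saline samples above every JA16 sample. The means were 485 ± 95.3 in JA16 and 680 ± 130 in saline (SD, n = 10 each), a log2 difference of -0.49 (SE 0.141, limma adjusted p = 0.9998, and 0.131 with the replicate block). An exact two-sided sign-flip permutation test over the 10 pairs gave an unadjusted p = 0.00586.

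The second Egr2 probe set (1427683_at) gave a like picture, with 283, 432 and 543 as lowest, median and highest intensity in JA16 and 372, 599 and 891 in saline samples. It was lower in JA16 in 8 of 10 pairs, at a log2 difference of -0.51. Egr2 was lower in JA16 in both array sets, at -0.29 (SE 0.121) in replicates 1 to 6, with -0.79 (SE 0.214) in replicates 7 to 10. Pairs 7 and 9 held the widest gaps of the brighter probe set, -1.32 and -1.17, and pair 6 was the only one higher in JA16, by 0.09. With the beta-actin ratio as a covariate beside the block, 1427683_at was the single probe set called of all tested (0.00222%), at -0.82 (SE 0.0996, limma adjusted p = 0.0162), while 1427682_a_at stood at -0.72 (adjusted p = 0.136). In that fit the brighter probe set missed the threshold at the gene level too, at an adjusted p of 0.0988.

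Nerve and Schwann cell markers, cells in which Egr2 acts, were also mostly lower in JA16. Of 11 such markers 7 were measured and past the filter on dim probe sets, 6 of them lower in JA16, with a median log2 difference of -0.59 and 4 at an unadjusted p under 0.05 (2.65% of all genes in either direction, 1.51% lower), and no marker called. Their summed intensity over the 8 with a probe set ran from 8129 to 21923 in JA16 and from 10155 to 21674 in saline samples, lower in JA16 in 8 of 10 pairs. The dimmest of them, Mag, averaged 25.7. In pairs 7 and 9, where Egr2 differed most, the sums were 8129 in JA16 against 10155 in saline and 12778 in JA16 against 14361 in saline. In pair 2, where Egr2 was lower in JA16, the sum was higher, 21923 in JA16 against 17589 in saline. Pair 3, with an Egr2 difference of -0.48, had sums of 9450 in JA16 and 21674 in saline. Pair 6, the only one with the brighter Egr2 probe set higher in JA16, had 8888 in JA16 and 12698 in saline. Their part in the Egr2 difference was not tested, and in whole muscle fewer cells of a type and less RNA per cell cannot be told apart.

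Egr1, a factor induced by growth factor and stretch signals in most cell types, had overlapping groups. It had 3811, 5170 and 6615 as lowest, median and highest intensity in JA16 samples, against 3557, 5547 and 8992 in saline samples. The saline samples spread wider on both sides, and 4 of them lay above every JA16 sample. The log2 difference was -0.14 (SE 0.158, limma adjusted p = 0.9998, and 0.527 with the block), lower in JA16 in 6 of 10 pairs. Replicates 1 to 6 gave -0.10 (SE 0.128) and replicates 7 to 10 gave -0.19 (SE 0.154). The value was -0.07 with array medians centred, -0.06 without saline replicate 9 and -0.28 with the block and the beta-actin ratio, and it was called in none of these.

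Egr3 had opposite directions in the array sets. Its measured probe set (1436329_at) ran from 110 over 256 to 540 in JA16 and from 156 over 290 to 574 in saline samples, so that the groups overlapped almost wholly. Over all 20 samples the log2 difference was -0.27 (SE 0.291, limma adjusted p = 0.9998, and 0.662 with the block). In replicates 1 to 6 JA16 was higher by 0.32 (SE 0.268), and 1 of 6 pairs was lower, while in replicates 7 to 10 the difference was -1.15 (SE 0.321), with 4 of 4 pairs lower. The difference between the sets was -1.47 (SE 0.473), with an unadjusted p = 0.00788 in limma's interaction term and an adjusted p = 0.9995. No gene (0%) was called for this interaction, and 2.68% of all genes had an unadjusted p under 0.05. Pairs 6 and 7 were the extremes of Egr3, at 1.79 and -2.38, and without pair 7 the difference with the block was -0.04. With the block and the beta-actin ratio it was -0.84 (SE 0.245, limma adjusted p = 0.366). The second Egr3 probe set (1421486_at) was dim, between 3 and 39.9 in all samples, and lay below the filter.

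Klf6 was the member with the most probe sets, and all 5 were lower in JA16, by -0.37 to -0.53 on the log2 scale. Depending on the probe set, 7 to 9 of 10 pairs were lower in JA16. Klf6 is a widely expressed factor induced early after injury that acts on matrix and growth control genes. The brightest (1433508_at) ran from 1760 over 3179 to 4460 in JA16 samples and from 2805 over 4037 to 5172 in saline samples. The groups overlapped, with 2 JA16 samples below every saline sample and 4 saline samples above every JA16 sample. Means were 3132 ± 756 in JA16 and 4014 ± 850 in saline (SD, n = 10 each), a log2 difference of -0.37 (SE 0.152, limma adjusted p = 0.9998, and 0.133 with the block). It was lower in JA16 in 9 of 10 pairs, with pair 9 the exception at 0.30 and pair 6 the widest at -0.89 (exact sign-flip permutation test, unadjusted p = 0.0156).

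Klf6 kept its direction in both array sets, with -0.42 (SE 0.0994) for replicates 1 to 6 and -0.30 (SE 0.175) for replicates 7 to 10. The probe set 1447448_s_at had the lowest p of any member probe set with the block (unadjusted p = 0.000553, limma adjusted p = 0.175). It had 557, 1161 and 1696 as lowest, median and highest intensity in JA16, against 1049, 1421 and 2147 in saline samples. A single Klf6 probe set, 1427742_a_at, was 2.01 higher on the log2 scale in replicates 7 to 10 than in 1 to 6, with intensities of 159 to 264 against 30.3 to 89.5, while the other 4 differed by -0.24 to 0.48 between sets. Its log2 difference between treatments was -0.53, close to the others. The fifth, 1459718_x_at, lay below the filter on dim probe sets.

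Klf2 and Klf4, factors best known for the response of endothelial cells to blood flow, did not differ beyond the spread. Klf2 averaged 945 ± 618 in JA16 and 867 ± 483 in saline samples (SD, n = 10 each), a log2 difference of 0.10 (SE 0.354, limma adjusted p = 0.9998, and 0.688 with the block). Its ranges in the array sets did not overlap, 243 to 747 for replicates 1 to 6 and 773 to 2191 for replicates 7 to 10, and the treatment difference was 0.10 in each. Klf4 had 1062, 1870 and 2425 as lowest, median and highest intensity in JA16, and 1473, 1974 and 2586 in saline samples. Its lower end reached further down in JA16, where 3 samples lay below every saline sample, and the log2 difference was -0.19 (SE 0.145, limma adjusted p = 0.9998, and 0.374 with the block). Within sets Klf4 gave -0.24 (SE 0.132) for replicates 1 to 6 and -0.12 (SE 0.163) for replicates 7 to 10. The other Klf4 probe set (1417394_at) gave -0.23 and was lower in JA16 in 7 of 10 pairs.

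Ccn1 encodes a secreted matrix protein, also called Cyr61, that binds integrins and is induced by stretch and serum. The 4 Ccn1 probe sets were lower in JA16 by -0.47 to -0.59 on the log2 scale. The brightest (1416039_x_at) ran from 837 over 1208 to 2949 in JA16 samples and from 988 over 1811 to 3591 in saline samples. JA16 and saline samples overlapped over most of this range, with 3 JA16 samples below every saline sample and 3 saline samples above every JA16 sample. The log2 difference was -0.47 (SE 0.271, limma adjusted p = 0.9998, and 0.170 with the block), and the exact sign-flip permutation test over 10 pairs gave an unadjusted p = 0.00586. Without the block the spread between array sets stands in the error, since this probe set was 1.00 higher on the log2 scale in replicates 7 to 10.

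Within sets Ccn1 was lower in JA16 with -0.34 (SE 0.164) for replicates 1 to 6 and -0.66 (SE 0.193) for replicates 7 to 10. Pairs 4 and 7 held the widest gaps, -1.30 and -1.44, and pair 6 alone was higher in JA16, by 0.20. Its probe sets disagreed on the array sets: 1438133_a_at was 1.56 higher in replicates 7 to 10, whereas 1442340_x_at and 1457823_at were lower there, at -0.51 and -0.53. The direction of the treatment difference was the same in all 4, with 7 to 9 of 10 pairs lower in JA16 depending on the probe set. Summed intensity of the 15 endothelial and mural markers, cells in which Ccn1, Klf2 and Klf4 are known to respond, ran from 13366 to 18361 in JA16 and from 15479 to 20288 in saline samples, lower in JA16 in 8 of 10 pairs at a mean log2 difference of -0.12. The dimmest of these markers, Cspg4, averaged 198, and their part in the results on Ccn1, Klf2 and Klf4 was not tested.

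**Figure D2:**
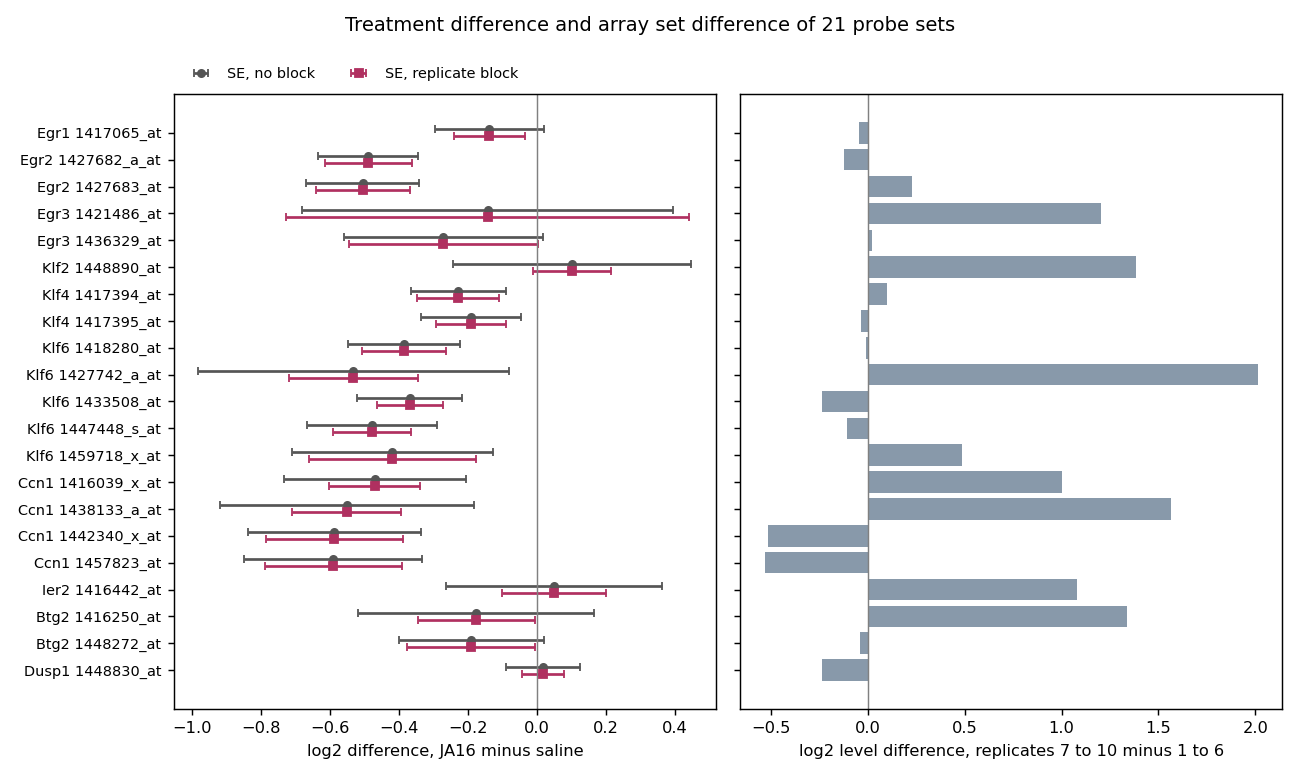
Left, log2 difference of JA16 minus saline for each of the 21 probe sets, with its standard error without the block (circles) and with the replicate block (squares). Right, log2 level difference between array sets, replicates 7 to 10 minus 1 to 6: 1427742_a_at of Klf6, 1438133_a_at of Ccn1 and 1448890_at of Klf2 stand furthest out at 2.01, 1.56 and 1.39, and 5 Klf6 and 4 Ccn1 probe sets lie left of 0 in the left panel.

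Btg2, an antiproliferative protein that recruits the deadenylase complex to messengers, was lower in JA16 in 7 of 10 pairs. Of all genes, 24.3% were lower in at least 7. The brighter Btg2 probe set (1448272_at) had 514, 675 and 1089 as lowest, median and highest intensity in JA16 samples, against 383, 894 and 1525 in saline samples. Saline samples thus reached further both ways, and the log2 difference was -0.19 (SE 0.213, limma adjusted p = 0.9998, and 0.651 with the block). Replicates 1 to 6 gave 0.10 (SE 0.257) and replicates 7 to 10 gave -0.63 (SE 0.159) with 4 of 4 pairs lower. The difference between the sets was -0.73 (SE 0.369, unadjusted p = 0.0675 in limma's interaction term, adjusted p = 0.9995). With the block and the beta-actin ratio Btg2 stood at -0.57 (limma adjusted p = 0.381). The other Btg2 probe set (1416250_at) gave -0.18 and stood 1.34 higher in replicates 7 to 10, where 1448272_at differed by -0.04.

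Ier2, a small nuclear protein of the early serum response, and Dusp1, the phosphatase that inactivates p38, JNK and ERK, had differences near 0. Ier2 had 50.6, 109 and 241 as lowest, median and highest intensity in JA16 samples, against 42.1, 115 and 246 in saline samples, with 5 of 10 pairs lower in JA16. Its log2 difference was 0.05 (SE 0.311, limma adjusted p = 0.9998, and 0.897 with the block), and it stood 1.08 higher in replicates 7 to 10. Its treatment difference was 0.09 (SE 0.212) for replicates 1 to 6 and -0.02 (SE 0.218) for replicates 7 to 10. Dusp1 averaged 9635 ± 1256 in JA16 and 9573 ± 1637 in saline samples (SD, n = 10 each). With a log2 difference of 0.02 (SE 0.0588 with the block, limma adjusted p = 0.912), 5 of 10 pairs lower and 5 higher, it was the member with the smallest error. Dusp1 differed by 0.04 (SE 0.0758) in replicates 1 to 6, with -0.02 (SE 0.0951) in replicates 7 to 10. The sign of its difference over all samples flips with quantile normalization, to -0.04.

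Fewer of the 10 genes were lower in JA16 in replicates 1 to 6 than in 7 to 10, 5 against 9, a contrast that was not tested over the members. The share of all genes lower in each set is not given here. Most other list medians were also lower in replicates 7 to 10, such as macrophage and leukocyte markers, at 0.09 and then -0.43. The exceptions were the MAP kinase and SRF inputs (0.06 and 0.17), skeletal muscle markers (0.03 and 0.08) and nerve and Schwann cell markers (-0.53 in each). Pair 6 gave the highest JA16 minus saline difference of 7 of the 10 genes, among them Egr1 at 0.50, Btg2 at 1.36 and Dusp1 at 0.42, and the lowest of Klf6. That pair also had the widest gap in the beta-actin ratio, 1.34 in the JA16 and 1.84 in the saline sample. The part of this ratio in the values of pair 6 was not tested. Without pair 6, the differences with the block were -0.50 for Egr3 and -0.36 for Btg2, and neither was called.

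**Figure D3:**
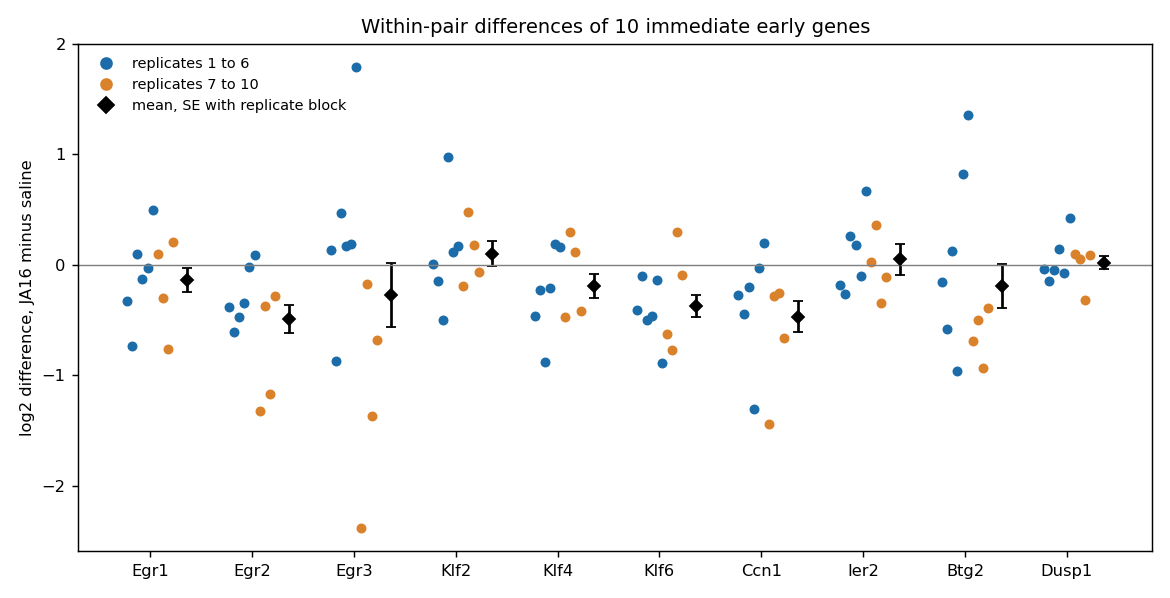
Log2 difference, JA16 minus saline, within each of the 10 same-numbered pairs for the 10 genes (points, coloured by array set), with the mean and its standard error from the fit with the replicate block (diamonds). Each gene is shown by its brightest probe set. Egr2, Klf6 and Ccn1 have 9 of 10 points below 0, whereas Egr3 spans -2.38 to 1.79.

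The members also differed in how much they varied between samples of one group. The pooled standard deviation of log2 intensity within groups was 0.231 for Dusp1, at the 10.4th percentile of all genes, and 0.287 for Egr2, at the 19.2nd. Klf2 stood at the other end, at 0.862 and the 92.4th percentile, with Ier2 at 0.729, Egr3 at 0.692 and Ccn1 at 0.652. Of the 10 genes 5 lay above the median of all genes, 0.446. Once array set means were removed as well, Klf2 dropped to 0.510 and Ccn1 to 0.411, against a median of 0.356, and 6 lay above the median.

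Levels of several members went together from sample to sample. With group means removed, Dusp1 followed Egr1 over the 20 samples (Pearson r = 0.79, permutation p = 2e-05, adjusted over 9 relations 0.00018; Spearman rho = 0.72, permutation p = 0.0005). Without the 2 samples farthest from the median of Egr1 it was 0.70 (permutation p = 0.0011, adjusted 0.0099). Replicates 1 to 6 gave 0.72 over 12 samples (permutation, adjusted p = 0.0684), replicates 7 to 10 gave 0.96 over 8 samples (exact permutation, adjusted p = 0.00333), and the pair differences gave 0.82 over 10 pairs (permutation, adjusted p = 0.0261). The relation over pair differences missed the threshold by rank (rho = 0.72, permutation, adjusted p = 0.216) and without the 2 farthest pairs (r = 0.67, permutation, adjusted p = 0.639), and that in replicates 7 to 10 missed it without the 2 farthest samples (r = 0.93, exact permutation, adjusted p = 0.104). The samples come in pairs that share deviations, so the 20 points are not fully independent. The same holds for the 12 and 8 samples within the sets, so the permutation p-values here and below are approximate. The word exact means only that every order was counted.

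Klf6 ran against Egr1, at r = -0.58 over the 20 samples (permutation p = 0.0083, adjusted 0.0374; rho = -0.53, permutation p = 0.019, adjusted 0.0855). This relation missed the threshold without the 2 farthest samples (r = -0.49, adjusted permutation p = 0.081) and within each array set, at r = -0.51 over 12 samples and -0.74 over 8. Ier2 and Btg2 correlated with Egr1 at 0.34 and 0.46 over all samples, both short of the threshold after adjustment, and at 0.91 and 0.90 over the 8 samples of replicates 7 to 10 (exact permutation, adjusted p = 0.0174 for each, and 0.104 without the 2 farthest samples). The other 5 relations with Egr1, to Egr2, Egr3, Klf2, Klf4 and Ccn1, had r between 0.21 and 0.45 and did not pass over all samples. For Egr3 r was 0.65 without the 2 farthest samples (permutation p = 0.0033, adjusted 0.0149).

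Among all 45 pairs of members, with group and array set means removed, 34 correlations were positive, with a median of 0.36. Egr1 with Dusp1 was highest at 0.90, followed by Klf2 with Ier2 at 0.70 and Ier2 with Dusp1 at 0.69. Klf6 correlated negatively with each of the other 9, down to -0.74 with Ier2. Egr2 went most closely with Egr3, at 0.67. These values describe 20 arrays that share sets and pairs, and no value over pairs of all genes is given beside them.

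**Figure D4:**
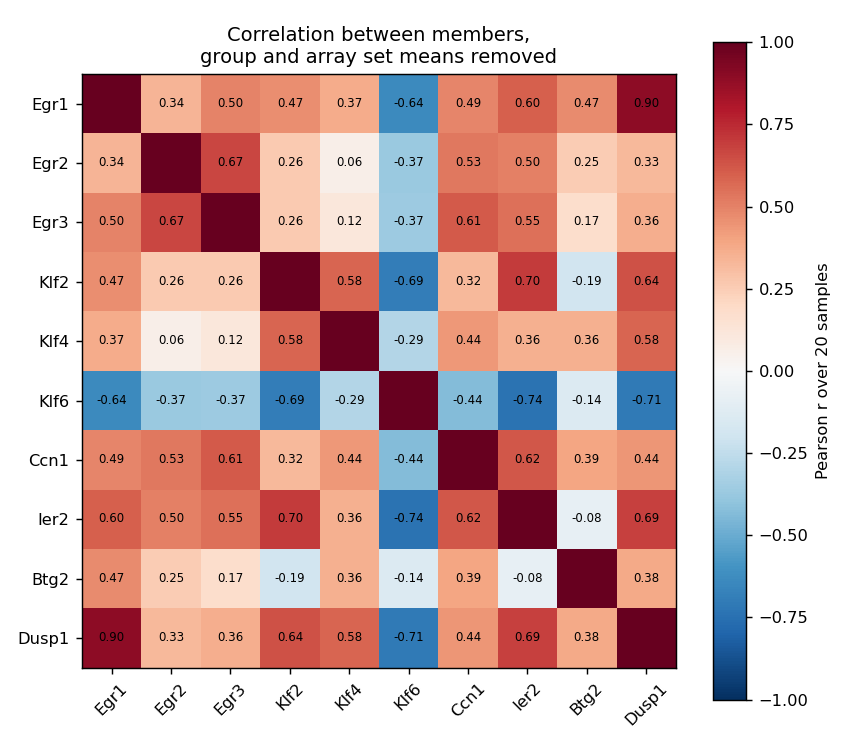
Pearson correlation of log2 intensity between the 10 genes over 20 samples, after group and array set means were removed, with the value printed in each cell and red for positive, blue for negative. The Klf6 row and column are blue throughout, and Egr1 with Dusp1 has the highest value, 0.90.

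The genes whose sample pattern came closest to the average pattern of the 10 members were Zfp516 (r = 0.85 over 20 samples), Tollip (0.84), Zfp212 (0.81), Dhrs3 (0.80), Cebpb (0.79), Phf13 (0.79), Zfp524 (0.78), Pwp2 (0.77), Stat5a (0.77) and Slc25a44 (0.77). Cebpb is itself an immediate early factor of the leucine zipper type. Their log2 differences between JA16 and saline lay between -0.15 (Phf13) and 0.05 (Stat5a), and none was called. The order depended on the array sets: with array set means removed as well, Kdm6b came first (r = 0.88, against 0.37 with them kept), followed by Icmt (0.87) and Gtf2h3 (0.86), and Zfp516, at 0.84, was no longer among the first 10. By the first measure the members themselves ranged from 0.75 for Egr1 to -0.59 for Klf6. Each member is part of that average pattern, which raises its r, so these values do not compare with those of the other genes.

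The relatives of the members were read from gene lists. Of 14 other Klf genes 10 were measured, 2 higher and 8 lower in JA16, with a median log2 difference of -0.16 and none called. Klf10, a factor induced by TGF-beta, was higher by 0.13 (SE 0.0904), and higher in 8 of 10 pairs, a count given without the share of all genes. Klf3 (-0.30, SE 0.218) and Klf15 (-0.23, SE 0.176), the last a regulator of muscle amino acid use, were lower. Klf3 rested on its brightest probe set, since the mean over its probe sets gave -0.01. Nab1 and Nab2, which bind Egr proteins and repress them, were the 2 measured of 4 other Egr and Nab genes. They differed by -0.11 (SE 0.390) and -0.03 (SE 0.186), and the sign of Nab2 flips with quantile normalization and with centred array medians.

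Of 17 other immediate early transcription factors 15 were measured, 4 higher and 11 lower, with a median of -0.13 and none called. Jun (-0.24, SE 0.125), Fos (-0.36, SE 0.216) and the nuclear receptor Nr4a2 (-0.41, SE 0.302) had the lowest p-values. Nr4a2 moved most with the processing, to -0.06 as the mean of its probe sets, -0.10 in replicates 1 to 6, -0.87 in replicates 7 to 10 and -0.94 with the block and the beta-actin ratio, and was called in none of these. Fos averaged 5430 ± 1851 in JA16 and 6976 ± 2162 in saline samples (SD, n = 10 each). Of 22 other early effectors 20 were measured, 7 higher and 13 lower, with a median of -0.05 and none called. Ccn2, a matrix protein of the same family as Ccn1 and a known TGF-beta target, averaged 1845 ± 531 in JA16 and 2556 ± 755 in saline samples, a log2 difference of -0.48 (SE 0.186, limma adjusted p = 0.9998, and 0.199 with the block). The growth arrest genes Gadd45a and Gadd45g went the other way, at 0.45 (SE 0.269) and 0.34 (SE 0.183). Gadd45a was higher in JA16 in 10 of 10 pairs, with an adjusted p of 0.0903 in the limma fit with the block. The share of all genes higher in all 10 pairs is not given here, and 0.580% were lower in all 10.

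The other dual-specificity phosphatases, relatives of Dusp1, split evenly: of 11, 8 were measured, 4 higher and 4 lower, with a median of 0.01 and none called. Dusp14 had the lowest value, -0.32 (SE 0.219), lower in 9 of 10 pairs, where 3.48% of all genes were lower in at least 9. Dusp8 stood at 0.23 (SE 0.177) and Dusp10 at 0.10 (SE 0.106).

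The kinases and SRF partners upstream of these genes leaned the other way. Of 24 listed, 18 were measured, 12 higher and 6 lower in JA16, with a median of 0.10. Rps6ka5, which encodes MSK1, a kinase below p38 and ERK that phosphorylates CREB and histone H3 at early gene promoters, averaged 542 ± 84.9 in JA16 and 906 ± 206 in saline samples (SD, n = 10 each). It was lower in JA16 in 10 of 10 pairs, as were 0.580% of all genes. Its log2 difference of -0.72 (SE 0.140) missed the threshold without the block (limma adjusted p = 0.0724) and passed it with the block (adjusted p = 0.0127), the only gene on these 6 lists to be called in either fit. The call with the block was lost with the beta-actin ratio added (-0.66, adjusted p = 0.185), and the mean over its probe sets gave -0.73 with an adjusted p of 0.9998 without the block. Within sets it was -0.67 for replicates 1 to 6 and -0.81 for replicates 7 to 10. Leaving out 1 sample at a time, without the block, gave adjusted p-values of 0.0138 to 0.201, and leaving out 1 pair with the block gave 0.00944 to 0.0518. Map2k6 and Map2k4, kinases that activate p38 and JNK, had differences of 0.24 (SE 0.101) and 0.17 (SE 0.0973) and were not called.

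**Figure D5:**
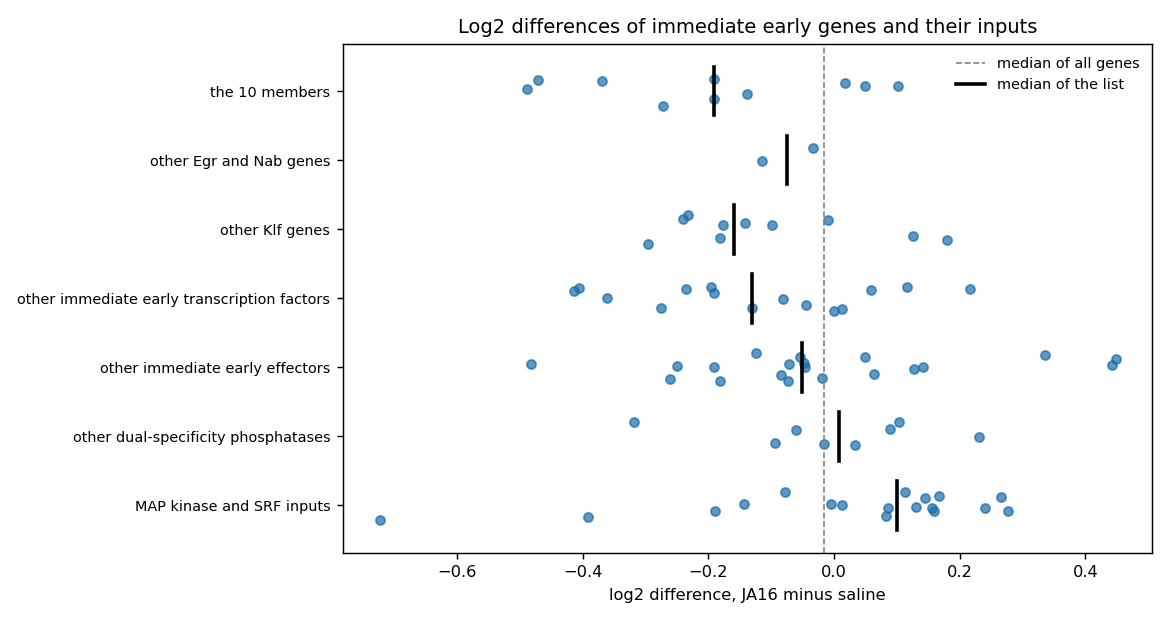
Log2 difference, JA16 minus saline, of each measured gene (points) in the 10 members and in 6 lists of related genes, with the median of each list (black bars) and of all genes (dashed line). The medians run from -0.19 for the members to 0.10 for the MAP kinase and SRF inputs, where Rps6ka5 lies apart at -0.72.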

How the data were processed

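The deposited values are linear MAS5 intensities, as named in the submitters' processing notes, with version and scaling target not given in the sources used here. All 20 arrays had the same trimmed mean (2% cut at either end), which shows scaling by the authors. The number of arrays limits the precision. Symbols came from the platform annotation: of 45101 probe sets 64 were controls, 34945 had 1 gene, 932 several and 9160 none, and 34741 gene identifiers matched RefSeq (GRCm38.p6).

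From these, 5 values at or below 0 were set to 0.1 and log2 was taken. Probe sets entered with a mean log2 intensity of at least 5.65, and the brightest one stood for its gene, 11201 in all. The test was that of limma 3.58.1 under R 4.3.3 (lmFit, eBayes with an intensity trend, two-sided), tested on simulated data, without a block, and again with the replicate number as a block. Same-numbered samples deviated together in all 10 pairs, above the limit of 0.1, against a median of -0.108 between different numbers. Array set means were left in these deviations, so sharing by set and sharing by pair were not told apart. The labels number the arrays of a pair one after the other, saline before JA16, so treatment and array order cannot be told apart. The fit over all probe sets had no filter. Correlations used scipy 1.17.1, and figures matplotlib 3.10.9. Promoter sequences are RefSeq's.

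The members and lists were chosen with earlier results of these data known. Named from each list were genes called in either fit and up to 3 of lowest p without the block, and, as most like the members, the 10 genes with the highest r to their mean standardised profile. The dimmest markers were named after their values were seen. Alternatives covered normalization, filter, pseudocount, choice of probe sets, array sets, the control ratio and left-out samples and pairs.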

Additional observations from a re-analysis of the deposited data

Results flagged for a closer look

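A single sample stood far from its group among the 21 probe sets. For the Ccn1 probe set 1442340_x_at, the fourth saline replicate was highest of 10 at an intensity of 554, with the nearest at 250. Chance marks about 1 in 20 groups in this way, and 1 of the 42 groups looked at was marked.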

How the results depend on the processing

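No member gene was called in any alternative. The lowest adjusted p was 0.0594, for Klf6 with the replicate block and without pair 9. Of 438 values of the members under the alternatives 413 kept their direction and their side of the threshold and 25 changed sign. The count of all genes called, 4, became 31 with the replicate block, 29 with quantile normalization and the block, 2 with centred medians, 10 with centred medians and the block, 2 with the upper quartile filter (fewer genes tested, without Egr3 and Ier2), 9 with the array set as a block, 0 in each array set alone with the block (fewer samples) and 1 with the block and the control ratio. It was 2 to 5 with 1 sample left out and 10 to 51 with 1 pair left out under the block. Of member probe sets, 1 was called with the block and the control ratio. The block, the paired analysis, changed no call of a member.

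Signs changed as follows, for causes that were not tested. With quantile normalization, alone or with the block, Dusp1 was -0.040 and Nab2 0.042, and Nab2 was 0.035 with centred medians, alone or with the block. In replicates 1 to 6, Egr3 was 0.32, Btg2 0.10, Nab1 0.049 and Nab2 0.045. In replicates 7 to 10, Ier2 was -0.020 and Dusp1 -0.022. With the block and the control ratio, Klf2 was -0.000137, Ier2 -0.052, Dusp1 -0.051 and Nab1 0.13. With 1 sample left out, Dusp1 ran from -0.037 to 0.063, Ier2 from -0.095 to 0.19, Klf2 from -0.077 to 0.22, Nab1 from -0.35 to 0.083 and Nab2 from -0.13 to 0.028. With 1 pair left out under the block, Dusp1 ran from -0.027 to 0.055, Ier2 from -0.020 to 0.093 and Nab2 from -0.14 to 0.058. The correlation of Egr1 with Klf2 was -0.11 over pair differences, and that with Klf4 was -0.17 there and -0.0010 in replicates 1 to 6. List medians changed sign too: other immediate early effectors, -0.050, were 0.019 with centred medians and 0.037 in replicates 1 to 6, other Egr and Nab genes, -0.074, were 0.047 in replicates 1 to 6, and other dual-specificity phosphatases, 0.0082, were -0.033 in replicates 7 to 10. With 1 sample or pair left out, the median of these phosphatases and of the Egr and Nab genes also crossed 0. Probe sets near background limit Egr3 (1421486_at) and Klf6 (1459718_x_at).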
